A study of Mus musculus with 233 samples.

Results

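The striatal transcriptome of mice treated with an allele-selective zinc finger repressor was compared between Huntington's disease model mice and their wild-type (WT) littermates, to measure the genotype difference that remained under the repressor. The comparison was zQ175 nZFP minus WT nZFP in the paradigm called 2M_6M and rested on 16 of the 233 bulk RNA-seq libraries of the series, 8 per group. All gene entries of the deposited count table except the 6 vector entries were eligible, and 15673 of 41129 gene entries passed the filter on low counts and were tested. The zQ175 mice were heterozygous zQ175DN knock-in animals, with a normal Htt allele and an allele whose first exon is the human one with a long CAG tract. Both genotypes, males and females, were given adeno-associated virus into the striatum of each hemisphere at 2 months of age, and the tissue was collected at 6 months of age, after 4 months of treatment. The nZFP virus encodes the HA-tagged protein ZFP30645, which targets expanded CAG repeats, behind the human synapsin promoter, so that expression of the repressor is meant for neurons and not for glia. Control hemispheres held DBD, the same protein without its DNA-binding domain behind the same promoter, or Estop, a stuffer that encodes no protein (15 libraries each over both genotypes). The 2 hemispheres of a mouse were given different viruses, so the nZFP libraries came from 16 different mice but shared mice with the controls: 3 zQ175 mice with DBD and 4 with Estop, and 4 WT mice with each.

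Huntington's disease is caused by an expanded CAG repeat in the gene for huntingtin, and medium spiny neurons, the principal projection neurons of the striatum, are the cells most affected. In knock-in models these neurons lose transcripts of their own identity (dopamine and adenosine signalling, phosphodiesterases, ion channel subunits). Developmental regulators that are normally kept silent rise there, and so do clustered protocadherins. Direct pathway neurons carry the D1 dopamine receptor, and indirect pathway neurons carry the D2 dopamine receptor and the adenosine receptor encoded by Adora2a. In bulk tissue, fewer cells of a type and less RNA per cell cannot be told apart, and this holds for each gene below.

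Library size, to the nearest 1000 counts, was 33761000 to 40777000 in zQ175 nZFP and 31876000 to 38416000 in WT nZFP. The repressor transcript stood at 365 to 934 CPM (counts per 1000000) in zQ175 nZFP (median 724) and at 427 to 1090 in WT nZFP (median 731), against at most 17.7 CPM in any control library. A pair of control libraries stood apart. The library labelled WT DBD R6 went against its label in its vector reads, with 59.2 CPM of the WPRE element against at least 792 in the other 14 DBD libraries and 3.73 CPM of the Estop entry against at most 1.62. The library labelled zQ175 DBD R3 had the largest shift in the level of long against short genes. All 6 groups shared 1 estimate of the spread, so the main counts are also given without these libraries.

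Under nZFP, 241 of 15673 genes still differed by genotype (1.54%), 137 higher in zQ175 (0.874%) and 104 lower (0.664%), at an adjusted p under 0.05. Under the control viruses, 4497 genes differed with DBD (28.7%; 17.2% higher and 11.5% lower) and 3036 with Estop (19.4%; 10.1% higher and 9.28% lower). Without the pair of control libraries that stood apart, 619 genes were called under nZFP (3.94%), 320 higher and 299 lower, among them all of the 241 (2.04% and 1.9% of the genes tested), while 3748 were called with DBD (23.8%) and 4494 with Estop (28.6%). With the 2 nZFP groups fitted alone, 555 of 14876 genes were called (3.73%). Of the 241 genes, 230 were tested in that fit. The other 11 did not pass its filter on low counts, so their calls rest on the filter over all 6 groups. At an unadjusted p under 0.05, 1645 genes passed. The median absolute log2 fold change of the 241 called genes was 0.41, and 28 of the 241 reached 1, compared with 386 called genes under DBD and 278 under Estop. In 59 of the 241 called genes the 8 zQ175 and 8 WT libraries did not overlap (24.5%), against 102 of all genes tested (0.651%).

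Of the 241 genes, 217 were also called in the same direction under both control viruses (90%), 5 under DBD alone, 12 under Estop alone and 7 under neither. The 7 were Mif4gd, Fzd1, Nckap5, Tmem28, Ighv6-3, Gm5493 and Gm29455, named here after their values were seen. A difference from the genotype effect under DBD passed the test in 2 of them, Ighv6-3 and Gm5493. Ighv6-3, an immunoglobulin variable segment, rested on 2 libraries: zQ175 nZFP R8 had 6.57 CPM and R2 had 3.00, while the median was 0.185 CPM in zQ175 nZFP and 0.0296 in WT nZFP. Ighv6-3 lost its call in 11 of 16 fits that left out 1 nZFP library, and its adjusted p rose from 0.047 to 0.203 without zQ175 nZFP R8.

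To follow the genotype effect itself, genes were chosen from the control libraries alone. A set of 2117 genes was called in the same direction under DBD and under Estop, 1070 higher and 1047 lower in zQ175. No nZFP library entered this choice, although the mice overlapped as stated and the groups shared 1 fit. Under nZFP, 217 of the 2117 still differed in the same direction (10.3%, beside 1.54% of all genes called), and 0 were called in the opposite one by edgeR, DESeq2 or limma voom (0 also at an unadjusted p under 0.05). A further 982 genes were near WT (46.4%), meaning not called and with a 95% interval of the log2 fold change within 0.32 of 0 either way. Among all genes tested, 53.1% met that limit, so the share of the set near WT was no higher than the background. Genes near WT had small genotype effects to begin with, with median log2 fold changes of 0.27 (DBD) and 0.28 (Estop) in the higher set and -0.32 and -0.28 in the lower set, against 0.09 and -0.09 under nZFP. Of the 982, 483 had estimates within the same limit under both control viruses and 246 past it under both, and 209 were smaller under nZFP than under DBD by the interaction of virus and genotype. Near WT is thus a statement on size under nZFP and not on a return. The other 918 genes were undecided (43.4%), not called but with an interval reaching past that limit. Undecided genes had lower levels, with median levels of 3.55 CPM (higher set) and 23.9 CPM (lower set) against 25.8 and 82.4 CPM for genes near WT, and wider standard errors.

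The sign of the genotype effect was kept under nZFP in 2030 of the 2117 genes. The median log2 fold change of the higher set was 0.43 under DBD, 0.42 under Estop and 0.16 under nZFP, and that of the lower set was -0.44, -0.39 and -0.15. Over all genes tested the medians were 0.03, 0.0055 and -0.002. By the interaction of virus and genotype, the effect was smaller under nZFP than under DBD in 436 of the 2117 genes and larger in 0 by any of these tools (0 also at an unadjusted p under 0.05). Over all genes tested, 509 were smaller (3.25%), and the interaction passed in either direction in 512 against DBD (3.27%) and in 204 against Estop (1.3%). Choosing genes under a control virus favours large values in that virus, so each choice was also read in the other control. Genes higher in zQ175 under Estop (1582) had a median of 0.31 under DBD and 0.15 under nZFP, and those lower under Estop (1454) had -0.36 and -0.15. Genes chosen under DBD had medians of 0.21 (2694 higher) and -0.26 (1803 lower) under Estop, against 0.08 and -0.10 under nZFP. When control libraries were taken from the 8 mice that gave no nZFP library, 724 genes formed the set, of which 120 still differed, 257 were near WT and 709 kept their sign. There the median went from 0.61 and 0.67 under the control viruses to 0.25 under nZFP in the higher set and from -0.65 and -0.60 to -0.19 in the lower set.

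**Figure D1:**
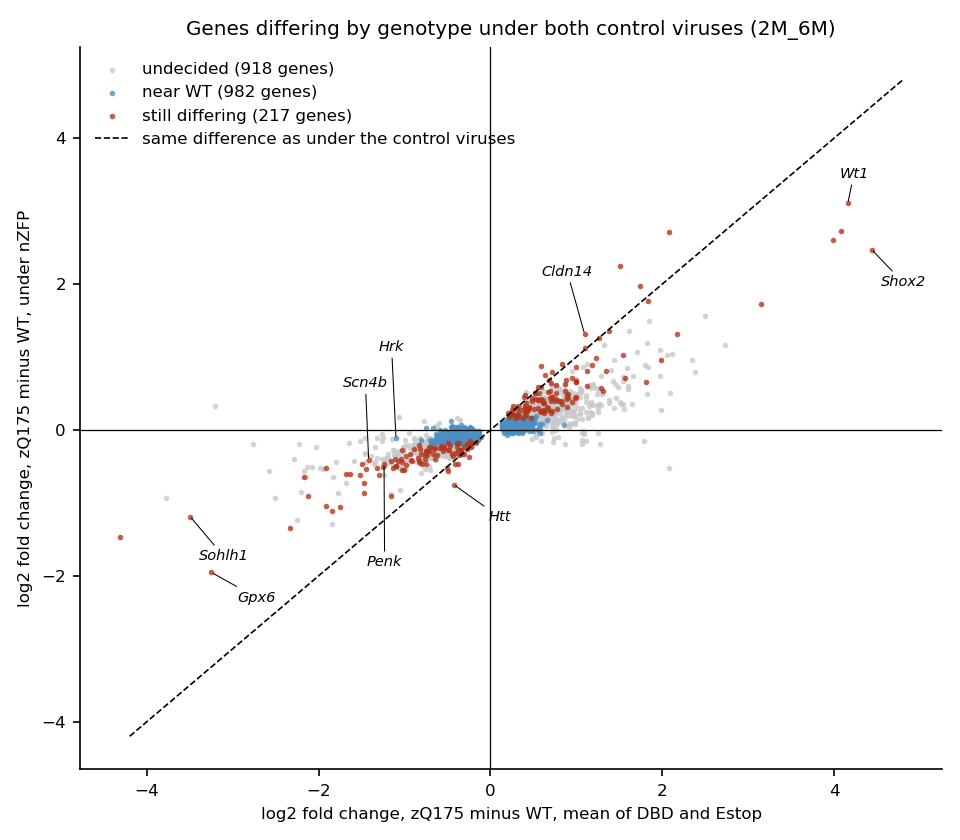
Each point is 1 of the 2117 genes that differed by genotype under both control viruses. The horizontal axis gives the mean log2 fold change (zQ175 minus WT) of DBD and Estop, the vertical axis that under nZFP, and the dashed line marks equal values. Points lie mostly between the horizontal line at 0 and the dashed line; 217 genes still differed, 982 were near WT and 918 were undecided.

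Of 171 genes with an absolute log2 fold change of at least 1 under both control viruses, 51 still differed, 1 was near WT and 119 were undecided; 162 kept their sign and 71 were smaller than under DBD. The median of the 93 higher genes went from 1.44 (DBD) and 1.35 (Estop) to 0.62 under nZFP, and that of the 78 lower genes from -1.53 and -1.52 to -0.47. The 1 gene near WT was Hrk, which encodes a BH3-only activator of apoptosis. Hrk stood at 55.7 to 77.8 CPM in zQ175 nZFP (median 66.4) and 66.1 to 78.1 in WT nZFP (median 71.3), and the groups overlapped. Its log2 fold change was -0.12 (SE 0.06), against -1.14 under DBD and -1.06 under Estop, where zQ175 means were 32.0 and 34.4 CPM. The difference from DBD passed the test (interaction 1.02, adjusted p = 4.5e-10).

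A genotype index summarised each library over the 2117 genes, as the mean signed log2 level scaled so that 0 is the mean of the WT control libraries and 1 that of the zQ175 control libraries. The ends of this scale were fixed by the choice of genes, and the index is given without a test. The 8 zQ175 nZFP libraries ranged from 0.364 to 0.621 (median 0.425), between all zQ175 control libraries (0.893 to 1.35) and all WT nZFP libraries (-0.110 to 0.222, median 0.0619). The highest of them, R6 with 0.621, had the lowest repressor level of its group (365 CPM), and the lowest, R2, had the highest (934 CPM).

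**Figure D2:**
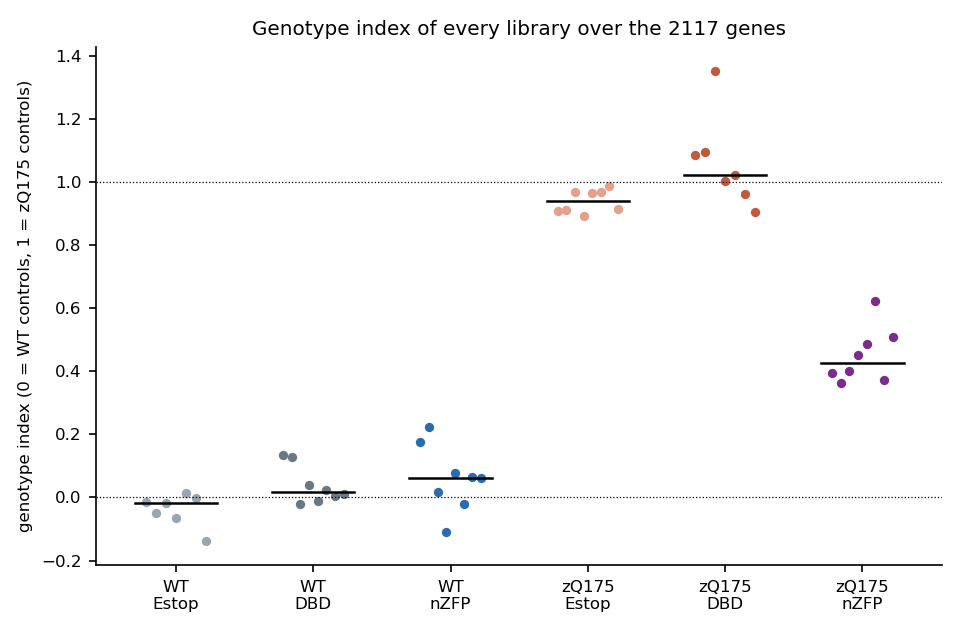
The genotype index of every 2M_6M library is plotted by group (points: libraries, lines: medians; 0 is the mean of WT controls and 1 the mean of zQ175 controls). The 8 zQ175 nZFP libraries lie from 0.364 to 0.621 and overlap with no other group.

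The WT nZFP libraries were the reference of the comparison, and most of their genes were not called against WT controls. In the same fit, 42 genes differed between WT nZFP and WT DBD (0.268%) and 92 between WT nZFP and WT Estop (0.587%), or 83 (0.528%) and 209 (1.33%) without the pair that stood apart. Among the 217 genes that still differed the counts were 6 and 13, and among the 982 near WT they were 6 and 16. For those genes, a difference from WT nZFP is not the same as a difference from WT controls, and they are pointed out where they appear.

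Htt, the target locus (chromosome 5, 34761740 to 34912534, GRCm38), was lower in zQ175 under every virus. Htt transcripts ranged from 68.0 to 89.1 CPM in zQ175 nZFP (median 80.1) and from 114 to 152 in WT nZFP (median 139). Every zQ175 library was below every WT library. The log2 fold change was -0.75 (SE 0.10, 95% interval -0.95 to -0.55, adjusted p = 4.3e-06), beside -0.54 under DBD and -0.31 under Estop, and the difference from DBD did not pass the test (interaction -0.21, adjusted p = 0.42). The Htt entry counts reads of both alleles as far as they align to it, so it does not separate the knock-in allele from the normal one. A separate Htt entry with the suffix HD held 0 to 2.104 counts per library in zQ175 nZFP and 0 in WT nZFP. It held 0 to 6.422 counts in zQ175 DBD, 1.028 to 6.418 in zQ175 Estop and at most 1.041 in WT controls. These counts were too few for a comparison. Within 5 Mb of Htt, 2 of 116 tested genes were called (1.72%), against 1.56% on other chromosomes. They were Otof, which encodes otoferlin (-0.49, adjusted p = 0.045), and Acox3, an acyl-CoA oxidase of peroxisomes (0.32, adjusted p = 0.045). Both sat at the threshold: Otof lost its call in 12 of 16 fits that left out 1 nZFP library (up to adjusted p = 0.117, without WT nZFP R2) and Acox3 in 14 (up to 0.136, without zQ175 nZFP R6), and each lost it under 4 of 11 other settings. Without the pair of control libraries that stood apart, 7 of the 116 were called (6.03%), beside 3.94% of all genes.

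Medium spiny neuron identity had the highest count of genes still below WT among the 40 lists examined, but was among the longer lists. A larger share was lower among indirect pathway genes (4 of 9) and oligodendrocyte genes (5 of 15). Of 34 shared identity genes tested, 9 were lower under nZFP and 0 higher, beside 0.664% of all genes called lower. Under DBD 30 of the 34 were lower and 2 higher, and under Estop 27 were lower and 1 higher. The median log2 fold change was -0.17 under nZFP, -0.63 under DBD and -0.57 under Estop. By the interaction, 20 of the 34 differed less than under DBD. Of the 27 genes that belonged to the genotype set, 9 still differed, 9 were near WT and 9 were undecided. Without the pair of control libraries that stood apart, 14 were lower under nZFP.

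Rgs4, which speeds the shut-off of G protein signals, ranged from 815 to 1175 CPM in zQ175 nZFP (median 1085) and from 1005 to 2054 in WT nZFP (median 1513). The groups overlapped, with a log2 fold change of -0.56 (SE 0.11, adjusted p = 0.0016) beside -1.05 under DBD and -0.97 under Estop. Pde1b, a calcium-activated phosphodiesterase, had 1241 to 1386 CPM (median 1337) against 1522 to 1724 (median 1613). No library overlapped, although its log2 fold change of -0.28 (SE 0.05, adjusted p = 0.00083) was well under the -0.76 seen with DBD. Scn4b, a sodium channel beta subunit, ranged from 1214 to 1674 CPM in zQ175 nZFP (median 1451) and from 1601 to 2507 in WT nZFP (median 1841). Its genotype difference was -0.41 (SE 0.11, adjusted p = 0.043) beside -1.52 under DBD and -1.31 under Estop (interaction 1.11, adjusted p = 2.2e-05). The call for Scn4b was lost in 9 of 16 fits that left out 1 nZFP library (WT nZFP R4, R5, R6 or R8, or zQ175 nZFP R1, R5, R6, R7 or R8), with adjusted p up to 0.154 without WT nZFP R5. It was also lost with the replicate block (adjusted p = 0.0692), by limma voom (0.0576), with no filter on low counts (0.0736) and with controls from other mice (0.0788).

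The phosphodiesterase Pde10a, which degrades cAMP and cGMP in these neurons, had a log2 fold change of -0.43 (adjusted p = 0.025) with levels of 1243 to 1713 CPM in zQ175 nZFP (median 1488) and 1597 to 2416 in WT nZFP (median 1913). Pde10a lost its call without WT nZFP R4, R5 or R6 or zQ175 nZFP R5 or R6, with adjusted p up to 0.0919 (without WT nZFP R5), and with controls from other mice (0.0731). The phosphatase inhibitor gene Arpp19 (-0.41), the retinoic acid receptor gene Rarb (-0.23), the phosphatase gene Ptpn5 (-0.22) and the cannabinoid receptor gene Cnr1 (-0.55) were also lower. Arpp21, which encodes a calmodulin-regulating phosphoprotein and is named here after its values were seen, ranged from 365 to 601 CPM in zQ175 nZFP (median 544) and from 515.5 to 1248 in WT nZFP (median 666). Both nZFP groups were far below the WT control means of 1882 CPM (DBD) and 1934 CPM (Estop), and below the zQ175 control means of 985 and 940 CPM. Against WT DBD, Arpp21 fell by 1.40 on the log2 scale in WT nZFP (adjusted p = 5e-11). The genotype difference of -0.49 (adjusted p = 0.023) was measured between groups that were both lower than their controls. It was not called without WT nZFP R1 (-0.33, adjusted p = 0.0876), nor without zQ175 nZFP R1, R2 or R4. Nor was it called with the nZFP groups fitted alone (adjusted p = 0.166) or with controls from other mice (0.113).

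The 9 identity genes near WT included the calcium/calmodulin kinase gene Camk4, the transcription factor genes Bcl11b, Meis2 and Isl1, and Strn and Actn2. Camk4 stood at 471 to 623 CPM in zQ175 nZFP (median 554) and 506 to 712 in WT nZFP (median 638), with overlap of the groups. Its log2 fold change was -0.17 (SE 0.07), against -0.62 under DBD and -0.64 under Estop (interaction 0.45, adjusted p = 0.0035). Ppp1r1b, which encodes the dopamine-regulated phosphoprotein DARPP-32, was undecided. It ranged from 2569 to 3226 CPM in zQ175 nZFP (median 2852) and from 3063 to 4049 in WT nZFP (median 3451), a log2 difference of -0.25 (SE 0.08, adjusted p = 0.09) beside -0.89 under DBD (interaction 0.64, adjusted p = 0.00033). Under 5 of 11 other settings Ppp1r1b was called, among them DESeq2 (adjusted p = 0.0483) and the fit without the pair of control libraries that stood apart (0.0392). Adcy5, the main adenylyl cyclase of the striatum, was likewise undecided at -0.20 (adjusted p = 0.21), beside -0.89 under DBD (interaction 0.69, adjusted p = 7.1e-05), and was called under 3 of 11 other settings, among them the fit without that pair (adjusted p = 0.0033).

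**Figure D3:**
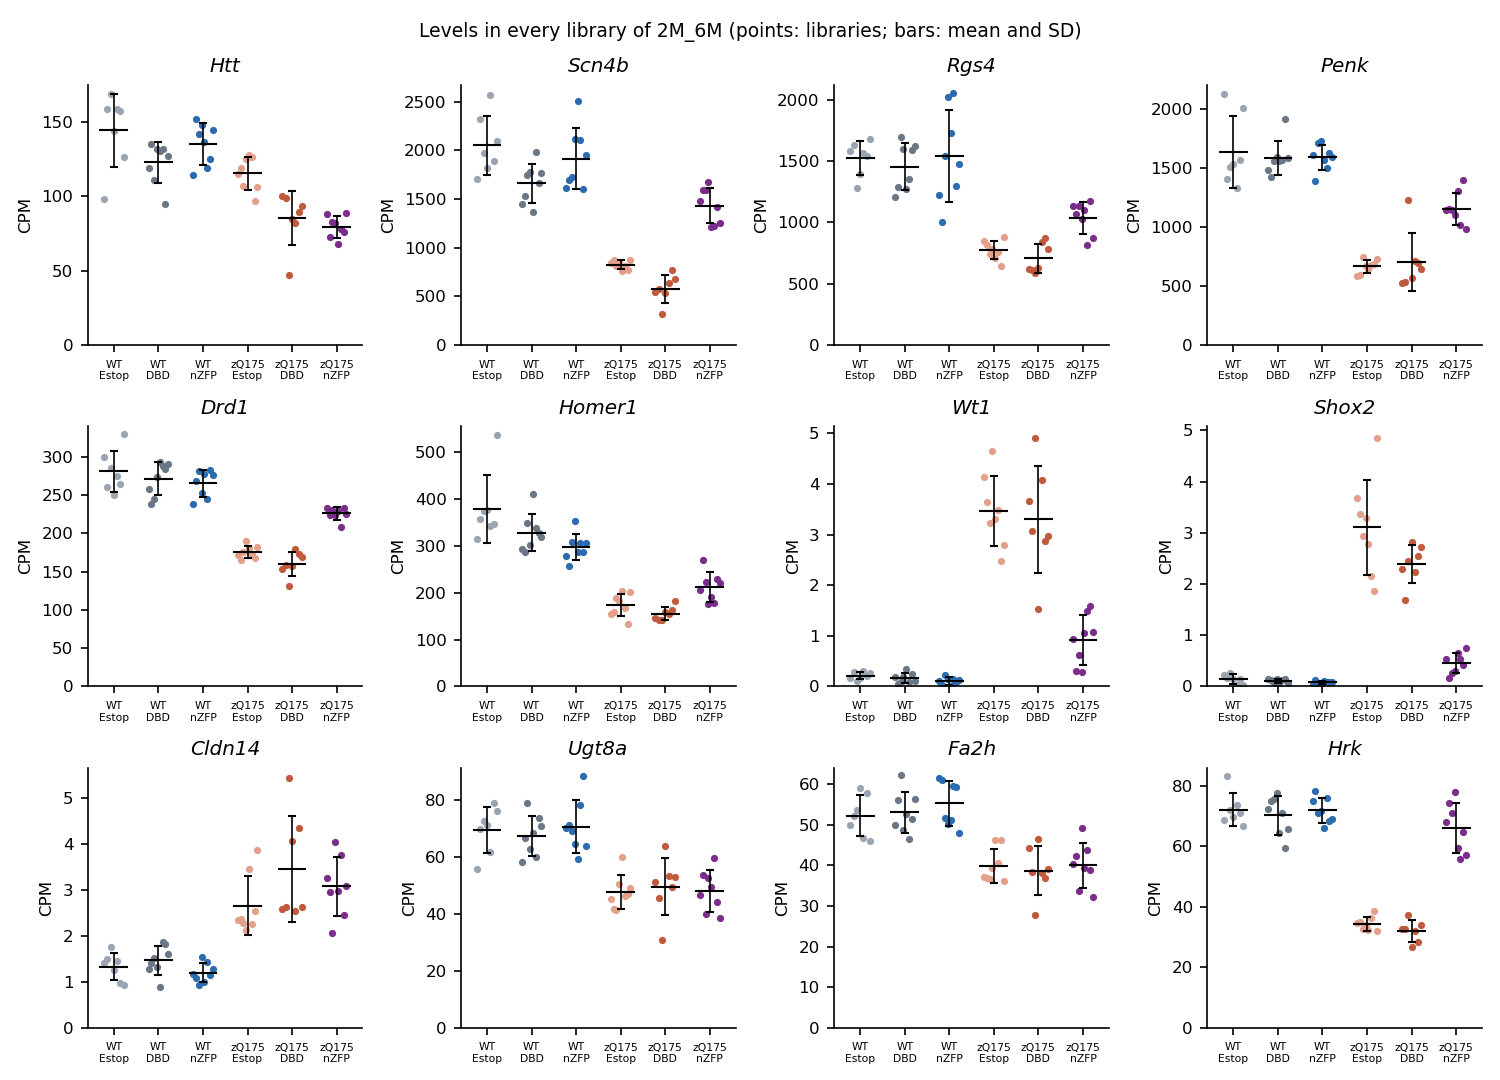
CPM of 12 genes in every 2M_6M library by group (points: libraries, bars: mean and SD; each panel has its own axis from 0). In Htt the zQ175 nZFP libraries (68.0 to 89.1) lie below all WT nZFP libraries, in Scn4b, Rgs4, Penk, Drd1 and Homer1 their mean lies between the zQ175 and the WT controls, in Ugt8a and Fa2h their mean lies beside the zQ175 controls, and in Hrk they overlap with WT.

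Indirect pathway genes were mostly still lower or undecided. Of 9 indirect pathway genes, 4 were lower under nZFP, against 8 under DBD and 7 under Estop. Penk, which encodes the opioid peptide precursor proenkephalin, ranged from 979 to 1393 CPM in zQ175 nZFP (median 1144) and from 1392 to 1725 in WT nZFP (median 1599), so that the groups met at their edge. Its log2 fold change was -0.47 (SE 0.11, adjusted p = 0.012), beside -1.17 under DBD, and it was not called with controls from other mice (adjusted p = 0.0542). Gpr6, an orphan receptor of these neurons, had 89.9 to 115 CPM (median 101) against 123 to 140 (median 129). No library overlapped, at -0.39 (SE 0.06, adjusted p = 5.4e-05) beside -0.87 under DBD. Upb1, a beta-ureidopropionase of pyrimidine breakdown, was also lower (-0.60, adjusted p = 0.0081), as was the adenosine receptor gene Adora2a (-0.27, adjusted p = 0.031). Adora2a lost its call without WT nZFP R4, R5, R6 or R8 or zQ175 nZFP R6 or R8 (up to adjusted p = 0.0844, without zQ175 nZFP R6), and with no filter on low counts (0.0556). Drd2, the D2 receptor gene, was undecided at -0.24 (adjusted p = 0.63) beside -0.97 under DBD.

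Among 12 direct pathway genes, 2 were lower and 1 was higher. Drd1, the D1 dopamine receptor gene, ranged from 208 to 233 CPM in zQ175 nZFP (median 227) and from 238 to 283 in WT nZFP (median 272). The groups did not overlap, and the log2 fold change was -0.23 (SE 0.06, adjusted p = 0.014) beside -0.76 under DBD and -0.68 under Estop (interaction 0.52, adjusted p = 4.8e-05). Eya1, a transcriptional coactivator with phosphatase activity, rose, with 7.36 to 10.3 CPM in zQ175 nZFP (median 8.93) and 4.58 to 7.48 in WT nZFP (median 6.67). Its log2 fold change was 0.47 (SE 0.10, adjusted p = 0.007), beside 0.47 under DBD and 0.33 under Estop. By edgeR, none of 19 interneuron genes was called under nZFP (1 at an unadjusted p under 0.05, and 0 by DESeq2 or limma voom), beside 1.54% of all genes tested. The summed level of the interneuron genes was 1477 to 1594 CPM in zQ175 nZFP and 1420 to 1636 in WT nZFP.

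Among signalling genes, Pde10a and Pde1b were the 2 that were lower of 27 cyclic nucleotide genes, against 9 lower under DBD. Of 19 genes of G protein subunits and their regulators, 3 were lower (Rgs4, Rgs14 and Rgs20) and 1 higher (Gng3). Rgs14, a scaffold of G protein and Ras signalling, had a log2 fold change of -0.42 (adjusted p = 0.0043) beside -1.25 under DBD. Gng3, a G protein gamma subunit gene, ranged from 74.5 to 95.6 CPM in zQ175 nZFP (median 91.1) and from 61.7 to 68.9 in WT nZFP (median 66.7). No library overlapped, at 0.40 (SE 0.08, adjusted p = 0.0031) beside 0.73 under DBD.

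Of 26 genes for opioid, cannabinoid, serotonin, muscarinic and other transmitter receptors, 2 were higher (Htr2c and the nociceptin receptor gene Oprl1) and 3 lower, among them Cnr1 and the metabotropic glutamate receptor gene Grm3. Htr2c, the serotonin 2C receptor gene, ranged from 83.5 to 102 CPM in zQ175 nZFP (median 94.6) and from 56.8 to 87.8 in WT nZFP (median 67.1), and 1 WT library, R2, reached into the zQ175 range. The log2 difference was 0.46 (SE 0.08, adjusted p = 0.00025) beside 0.98 under DBD and 1.02 under Estop. Among 36 potassium channel genes, 2 were lower under nZFP, Kcnh3 (-0.18, adjusted p = 0.023) and Kcnab1 (-0.25, adjusted p = 0.024), against 17 under DBD and 12 under Estop. Over all genes tested, 0.664% were lower under nZFP, 11.5% under DBD and 9.28% under Estop. Kcnh3 lost its call in 5 and Kcnab1 in 6 of 16 fits that left out 1 nZFP library (up to adjusted p = 0.0756 without zQ175 nZFP R5 and 0.0879 without WT nZFP R5). Kcnh3 was also not called with no filter on low counts (adjusted p = 0.0604), and Kcnab1 with controls from other mice (0.0553). Of the 13 potassium channel genes in the genotype set, 6 were near WT, among them Kcnip3, Kcnj4, Kcnk2 and Kcnd2, and 5 were undecided. Of 26 sodium and calcium channel genes, 1 was lower (Scn4b) by edgeR, 2 by DESeq2, 0 by limma voom and 5 without the pair of control libraries that stood apart, while Scn2b, Cacna2d1, Cacnb1 and Cacnb3 were near WT.

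At the synapse, Homer1 and Syp were among the few genes called. Of 28 genes for glutamate receptors and postsynaptic scaffolds, 1 was lower under nZFP, against 10 under DBD and 9 under Estop (0.664%, 11.5% and 9.28% of all genes tested). The gene lower under nZFP was Homer1, a postsynaptic scaffold gene whose short form is induced by activity, with 175 to 271 CPM in zQ175 nZFP (median 214) and 258 to 354 in WT nZFP (median 297). The highest zQ175 library lay above the lowest WT library, and the log2 fold change was -0.50 (SE 0.09, adjusted p = 0.0014) beside -1.08 and -1.12 under DBD and Estop. The scaffold genes Dlg4 and Dlgap3, the AMPA receptor gene Gria3 and the kinase gene Camk2b were near WT. No gene of 20 for GABA receptors, synthesis and transport was called under nZFP (9 under DBD). Without the pair of control libraries that stood apart 1 was lower, and with the nZFP groups fitted alone 2 were. Gabrd was among the genes near WT, but was called under 2 of 11 other settings. Of 21 calcium-binding protein genes 0 were called under nZFP, against 8 under DBD and 10 under Estop. Over all genes tested, 1.54% were called under nZFP, 28.7% under DBD and 19.4% under Estop. At 1.54%, 0 of 21 or 0 of 20 says nothing particular of the calcium-binding or GABA list. Of 24 immediate early genes, 1 was lower (Homer1, which stands on both lists), while 5 of the 7 in the genotype set were undecided, among them the transcription factor gene Egr1 (-0.24, beside -0.88 under Estop). Of 29 vesicle release genes 1 was higher, Syp, the gene of the vesicle protein synaptophysin (0.25, SE 0.06, adjusted p = 0.0096). Of 23 growth factor and axon growth genes 1 was higher, Stmn2. Stmn2, a microtubule regulator of growing axons, ranged from 83.0 to 98.2 CPM in zQ175 nZFP (median 91.7) and from 65.6 to 73.0 in WT nZFP (median 68.7). Its libraries did not overlap, at 0.39 (SE 0.07, adjusted p = 0.00083) beside 1.03 under DBD (interaction -0.64, adjusted p = 7.6e-05).

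Developmental regulators, at very low levels, included the largest log2 differences named here apart from Ighv6-3. Of 24 tested homeobox and other Polycomb-repressed developmental genes, 16 passed the filter on low counts with the nZFP groups fitted alone. The 5 that were called under nZFP (Wt1, Shox2, Onecut1, Hoxc4 and Pou4f1) were not among the 16: zQ175 control libraries, where they are high, carried them over the filter of the 6-group fit. Their number is therefore no support for a change of the list, and they are described by their reads. Wt1, a zinc finger transcription factor gene of kidney and gonad development, ranged from 0.282 to 1.58 CPM in zQ175 nZFP (median 0.999) and from 0 to 0.227 in WT nZFP (median 0.115). All zQ175 libraries lay above all WT libraries, with 264 against 29 reads in sum. The log2 fold change was 3.11 (SE 0.37), beside 4.34 under DBD and 3.98 under Estop, and the difference from DBD did not pass the test (adjusted p = 0.23). Shox2, a homeobox gene of limb and heart development, ranged from 0.171 to 0.757 CPM (median 0.474) against 0.0309 to 0.118 (median 0.0844), again with no overlap and with 132 against 22 reads. Its log2 fold change was 2.47 (SE 0.34) beside 4.44 under both control viruses. The interaction estimate against DBD was -1.97. It is not read as a test result, because high zQ175 control libraries carried Shox2 over the filter.

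Onecut1, a homeobox gene of liver and neural development, had 73 reads in zQ175 nZFP and 11 in WT nZFP (log2 fold change 2.61, SE 0.48). Hoxc4, a homeobox gene of body axis patterning, had 32 against 4 reads and Pou4f1, a gene of sensory neuron development, 40 against 11. With so few reads, their folds are uncertain: 4 of 8 WT libraries had 0 reads of Hoxc4 and 3 of 8 had 0 of Pou4f1. Hoxc4 was not called by limma voom (adjusted p = 0.065). The RefSeq window from 250 bases before to 50 after the start of Onecut1 (GRCm38.p6, chr9:74861671-74861970, plus strand) held 38 CG pairs, a number reached by 4.95% of the 32851 windows of the table. That of the falling gene Scn4b (chr9:45138374-45138673, plus strand) held 26, reached by 16.9% of windows. They are shown with CG pairs in capitals as 1 gene that stayed higher and 1 that stayed lower, not as typical ones. The window of Shox2, also higher, held 11 CG pairs, and that of Rgs4, also lower, held 13. The median was 7 CG pairs over the windows of the table and 20 over tested genes with a window. The percentages above therefore do not give a rank among tested genes. A comparison of such windows between gene classes was void, because only 75.4% of tested genes had a window.
Onecut1: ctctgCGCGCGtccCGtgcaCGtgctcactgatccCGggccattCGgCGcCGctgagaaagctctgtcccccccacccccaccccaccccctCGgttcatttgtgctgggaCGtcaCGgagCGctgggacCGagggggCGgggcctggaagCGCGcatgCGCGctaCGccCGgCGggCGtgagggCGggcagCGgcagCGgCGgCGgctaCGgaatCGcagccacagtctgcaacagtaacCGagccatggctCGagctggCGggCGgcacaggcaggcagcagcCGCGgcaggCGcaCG
Scn4b: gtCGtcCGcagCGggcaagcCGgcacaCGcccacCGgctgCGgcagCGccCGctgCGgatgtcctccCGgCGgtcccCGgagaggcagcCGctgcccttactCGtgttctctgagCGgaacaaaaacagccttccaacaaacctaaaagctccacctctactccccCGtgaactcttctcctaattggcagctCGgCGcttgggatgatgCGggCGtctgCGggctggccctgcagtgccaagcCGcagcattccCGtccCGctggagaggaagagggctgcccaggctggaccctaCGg

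Among chromatin genes, Sfmbt2 remained higher. Of 28 genes for Polycomb proteins and histone H3K27 enzymes, 2 were higher, Sfmbt2 among them, against 10 higher under DBD. Over all genes tested, 0.874% were higher under nZFP and 17.2% under DBD. Sfmbt2, a Polycomb group gene with malignant brain tumour repeats, ranged from 2.05 to 2.88 CPM in zQ175 nZFP (median 2.41) and from 0.947 to 1.52 in WT nZFP (median 1.21). Its libraries did not overlap, at 0.96 (SE 0.14, adjusted p = 1.5e-05) beside 1.93 under DBD (interaction -0.97, adjusted p = 0.0018). Of 23 clustered protocadherin genes, whose products mark single neurons in cell recognition, 3 were higher (Pcdhb12 0.45, Pcdhb3 0.44 and Pcdhb9 0.40) against 14 under DBD and 16 under Estop. Their median was 0.16 under nZFP, 0.54 under DBD and 0.55 under Estop. Pcdhb9 ranged from 17.7 to 21.7 CPM in zQ175 nZFP (median 19.5) and from 13.3 to 16.1 in WT nZFP (median 15.2), without overlap. Pcdhb20 and Pcdhb17 were near WT and smaller than under DBD (interaction adjusted p = 0.00014 and 0.004). These paralogs share sequence, and reads may be split between them.

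Some genes had log2 differences under nZFP of about the size measured under the control viruses, and their interaction did not pass the test. Cldn14, which encodes a tight junction claudin, ranged from 2.06 to 4.05 CPM in zQ175 nZFP (median 3.03) and from 0.941 to 1.55 in WT nZFP (median 1.16). The groups did not overlap, with a log2 fold change of 1.32 (SE 0.17, adjusted p = 2e-06) beside 1.22 under DBD and 0.97 under Estop. Slc45a3, a sugar transporter family gene, had 2.86 to 5.14 CPM (median 3.97) against 1.39 to 2.29 (median 1.80), also without overlap. Its log2 fold change was 1.13 (SE 0.16, adjusted p = 1.4e-05), beside 1.11 under DBD and 1.10 under Estop (interaction adjusted p = 0.97). Acy3, an aminoacylase gene, was higher by 1.26 (adjusted p = 4.6e-06) beside 1.51 and 1.02. Dsp, the desmosome gene desmoplakin, was higher by 1.31 (adjusted p = 0.00074) beside 2.17 under both control viruses, a smaller estimate whose difference from DBD did not pass the test (adjusted p = 0.16). The groups overlapped in Dsp (0.760 to 5.34 against 0.651 to 1.88 CPM).

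Gpx6, Phex and Sohlh1 were the genes with the largest falls by the rule for named genes. Gpx6, a glutathione peroxidase gene, ranged from 0.378 to 0.763 CPM in zQ175 nZFP (median 0.503) and from 0.989 to 5.98 in WT nZFP (median 1.70), without overlap (log2 fold change -1.95, SE 0.25, adjusted p = 2.4e-06). WT control means were 9.58 CPM with DBD and 11.3 with Estop, so WT nZFP was itself far lower (against WT DBD, Gpx6 fell by 2.22 on the log2 scale, adjusted p = 5.9e-10). The zQ175 nZFP mean of 0.526 CPM also lay below the zQ175 control means of 0.982 (DBD) and 1.225 (Estop), a difference that was not tested. Phex, an endopeptidase gene, was lower by genotype (-1.35, adjusted p = 0.00023), and so was the keratin gene Krt9 (-0.87, adjusted p = 2.9e-05). In WT nZFP both were also below WT DBD, Phex with -1.11 and Krt9 with -0.68 (adjusted p = 0.0019 for each). In zQ175, mean Phex was 1.16 CPM with nZFP, 1.57 with DBD and 1.04 with Estop. Mean Krt9 in zQ175 was 18.6, 21.3 and 21.2 CPM in the same order. Sohlh1, a transcription factor gene of germ cells, ranged from 0.420 to 0.704 CPM in zQ175 nZFP (median 0.555) and from 0.937 to 1.38 in WT nZFP (median 1.24), without overlap. The log2 difference was -1.19 (SE 0.25, adjusted p = 0.004) beside -3.28 under DBD, and in WT nZFP it was higher than in WT Estop (1.85, adjusted p = 2.3e-05) but not called against WT DBD (0.24).

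Plk5, a polo-like kinase gene of neurons, ranged from 14.1 to 17.8 CPM in zQ175 nZFP (median 15.4) and from 23.7 to 30.1 in WT nZFP (median 25.0). No library overlapped, and the log2 fold change was -0.73 (SE 0.10, adjusted p = 4.3e-06) beside -1.42 under DBD. Ddit4l, an inhibitor of mTOR signalling, had 18.2 to 26.3 CPM (median 22.4) against 32.1 to 41.1 (median 33.3), again without overlap. The difference of -0.64 (SE 0.09, adjusted p = 1.5e-05) was smaller than the -2.12 under DBD (interaction 1.47, adjusted p = 4.5e-10).

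Oligodendrocyte genes, which belong to cells in which the synapsin promoter is not meant to be active, were still lower in part. Of 15 tested, 5 were lower under nZFP, 5 under DBD and 6 under Estop, while 2 were higher under DBD and 0 under nZFP or Estop. By the interaction the effect of 0 was called smaller than under DBD, beside 3.25% of all genes tested, a share at which 0 of 15 says nothing particular of this list. Of the 5 in the genotype set, 4 still differed and 1 (Mobp) was undecided. Ugt8a, the enzyme gene of galactosylceramide synthesis for myelin, ranged from 38.4 to 59.7 CPM in zQ175 nZFP (median 48.0) and from 59.1 to 88.5 in WT nZFP (median 69.6), with the highest zQ175 library, R6, just above the lowest WT library, R5. The log2 difference was -0.56 (SE 0.10, adjusted p = 0.00087) beside -0.44 under DBD and -0.55 under Estop (interaction adjusted p = 0.69). Fa2h, a fatty acid hydroxylase gene of myelin lipids, had 32.3 to 49.1 CPM (median 39.9) against 47.9 to 61.7 (median 55.5), with a log2 fold change of -0.47 (SE 0.08, adjusted p = 0.00083) beside -0.45 under DBD. The myelin genes Mal (-0.46) and Cldn11 (-0.33) were lower as well. Over the whole list, the summed level was 5819.5 to 9369.6 CPM in zQ175 nZFP and 7804 to 10195 in WT nZFP, ranges that overlap. Enpp6, which marks newly formed oligodendrocytes, was the 1 gene of 10 on the precursor list that was higher (0.59, SE 0.11, adjusted p = 0.0012), beside 0.61 under DBD. A p that misses the threshold for the interaction does not show that these effects are alike under both viruses, and whether a change in cell number took part was not tested.

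**Figure D4:**
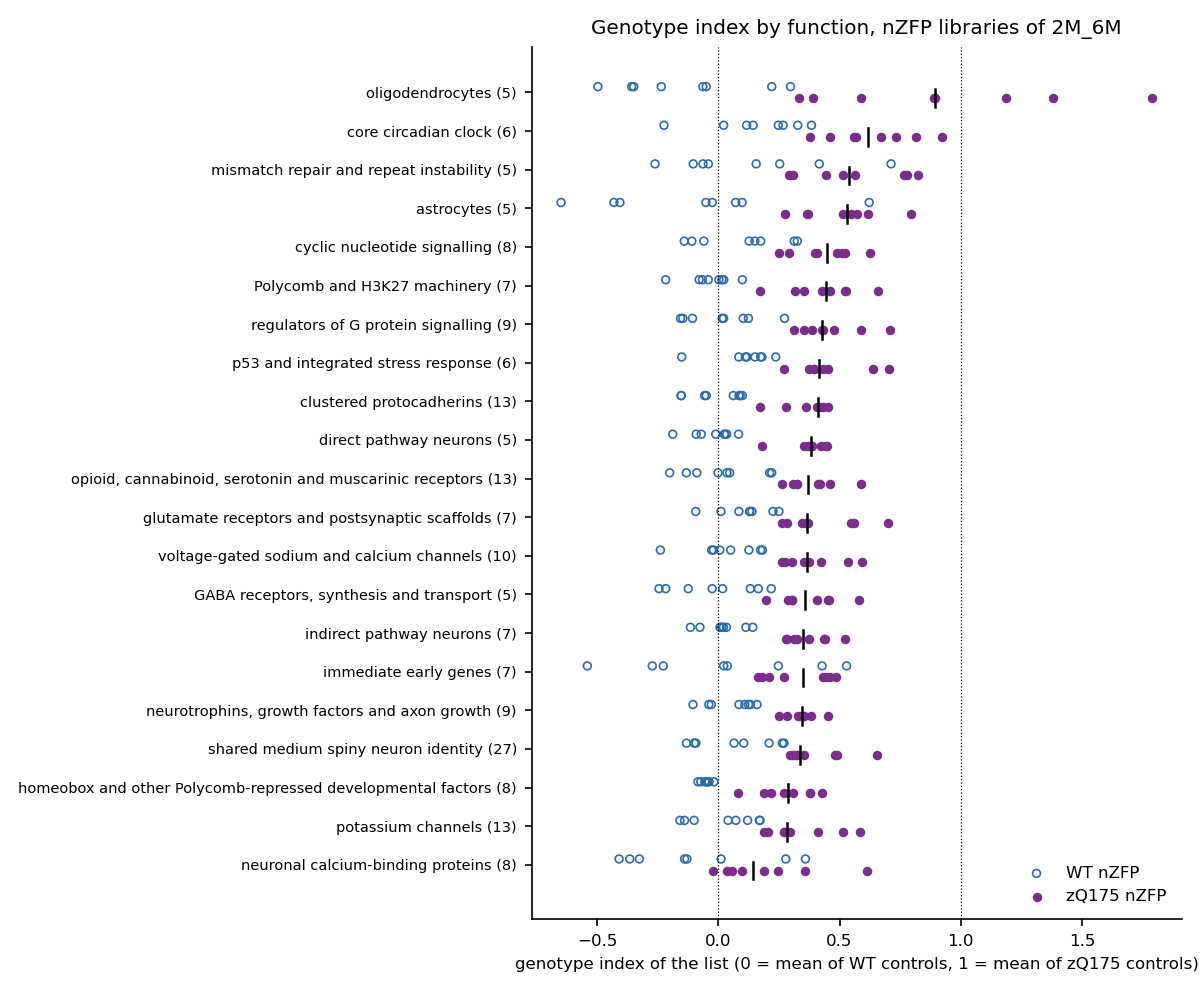
The genotype index of each nZFP library is plotted for 21 gene lists with at least 5 genes in the genotype set (number in brackets; filled points: zQ175 nZFP, open points: WT nZFP, bars: median of zQ175 nZFP). The medians run from 0.142 for calcium-binding proteins to 0.893 for oligodendrocytes, and shared medium spiny neuron identity has 0.339.

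By function, the genotype index is a description over few genes each. Oligodendrocytes had a median of 0.893 in zQ175 nZFP (0.334 to 1.79) and overlapped with the zQ175 controls, and core circadian clock genes had 0.619 (0.379 to 0.924). Shared identity genes had 0.339 (0.295 to 0.653), indirect pathway genes 0.350 and direct pathway genes 0.383, none of which overlapped with WT nZFP or with the zQ175 controls. Calcium-binding protein genes had the lowest median of the 21 lists, 0.142 (-0.0230 to 0.614), and overlapped with WT nZFP. Astrocyte genes had 0.532 and overlapped with WT nZFP and with the zQ175 controls.

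In 19 of the 40 lists no gene was called under nZFP by edgeR. Over their 367 genes 34 had an unadjusted p under 0.05 (9.3%, beside 10.5% of all genes tested), 2 were called by DESeq2, 0 by limma voom and 8 without the pair of control libraries that stood apart. Of 16 mismatch repair genes, which act on repeat instability, 0 were called under nZFP (1.54% of all genes) against 9 under DBD. All 5 in the genotype set were near WT, a limit met by 53.1% of all genes tested. The median log2 fold change of the list was only 0.20 under DBD and 0.19 under Estop, and the effect of 0 was called smaller than under DBD. The genotype index of the 5 had a median of 0.539 in zQ175 nZFP (0.293 to 0.824). It overlapped with WT nZFP and with the zQ175 controls. For 44 nuclear respiratory chain genes and 31 proteasome genes, 0 were called under nZFP and under Estop, against 16 (36.4%) and 8 (25.8%) under DBD, where 28.7% of all genes were called. The lists without a call also held 23 cholesterol synthesis, 28 heat shock, 30 autophagy and lysosome, 25 interferon and antigen presentation, 17 microglia, 14 disease-associated microglia, 7 lymphocyte, 13 reactive astrocyte, 15 astrocyte, 12 endothelial and 14 mural cell genes. By the interval, 16 of the 17 microglia genes were near WT, beside 53.1% of all genes tested. Only 2 of the 17 were in the genotype set, so this is no return to WT. Near WT were 0 of the 13 reactive astrocyte genes, 0 of the 12 endothelial genes and 0 of the 14 mural cell genes, whose intervals reached past the limit. Gfap, the astrocyte filament gene, spread from 13.6 to 47.7 CPM in zQ175 nZFP and had a log2 difference of -0.29 (SE 0.24). Serpina3n was just short of the threshold in the main fit (0.53, SE 0.15, adjusted p = 0.051). Serpina3n was called in 3 of 16 fits that left out 1 nZFP library and under 7 of 11 other settings. In the p53 and stress list of 25 genes, Eda2r was higher (0.90) and Ddit4l lower, and in the circadian list of 18, Npas2 was lower (-0.33).

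As for tissue next to the striatum, 1 of 9 tested cortical neuron genes was higher (Lamp5, 0.20). The summed level of the list was 158 to 175 CPM in zQ175 nZFP and 145 to 155 in WT nZFP, without overlap. A sum follows the genes with the highest levels, and the median log2 fold change of the list was -0.04. Without the pair of control libraries that stood apart, 1 of these genes was higher and 1 lower. Of 13 choroid plexus and ependymal genes and 14 pallidal and septal genes, 0 were called, with summed levels of 22.8 to 27.9 and 20.3 to 31.6 CPM for the first list and 375 to 444 and 376 to 480 for the second. The part of dissection in the other results was not tested. Summed levels of the shared identity list, the check of the labelled tissue, were 24592 to 29451 CPM in zQ175 nZFP and 29021 to 36307 in WT nZFP.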

How the data were processed

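Striatal polyA RNA was sequenced in bulk, and the values used are the RSEM expected counts per gene that the authors deposited, on GRCm38 per the submitters' processing notes. Expected counts are estimates that divide ambiguous reads between transcripts; 90.4% of the values used were whole numbers, and all were rounded. Which RSEM version and annotation release were used, and whether counting was by strand, is not given in the sources used here. Values of overlapping and antisense genes and close paralogs are therefore uncertain. Nothing in the labels says more of the replicates than that each nZFP library came from a different mouse.

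The 46 libraries of 2M_6M (24 mice, 28592000 to 41764000 counts) were fitted together with edgeR 4.0.16 (quasi-likelihood F-test, robust, R 4.3.3), with the 6 groups and sex as terms, TMM scaling and edgeR's filter on low counts by group. Genes with an adjusted p (Benjamini-Hochberg over all 15673 genes tested) under 0.05 were called. Gene-wise SE and 95% intervals came from the F statistic. CPM used TMM-scaled library sizes without vector entries, and the genotype index used log2(CPM + 0.5). Vector entries made up at most 0.669% of a library. Alternatives used RLE scaling, limma 3.58.1 (voom with the mouse as a random effect), DESeq2 1.42.0, other filters, covariates, limits and samples, and each nZFP library was left out in turn. On simulated data for zQ175 nZFP minus WT nZFP (15587 genes, 50 changed at each size), 40% of genes changed by the limit used for near WT, 80% of those changed 1.5-fold, 92% of those changed 2-fold and 100% of those changed 4-fold were called, with 3 false calls among 159. The changed genes were drawn from those above a mean of 1 CPM, so the shares do not cover genes at lower levels. Libraries were drawn as independent from the fitted spread, without shared mice, so the false calls hold under those assumptions only.

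Genes were named by rule: Htt; the 12 higher and 12 lower called genes with the largest log2 fold change and a mean of at least 1 CPM; up to 4 genes of each list with the smallest p; up to 8 genes with large control effects that were near WT and 8 that still differed; up to 6 genes present under nZFP alone, up to 4 in the opposite direction and up to 6 called near Htt. Not every gene the rule gives is described, some genes are not reported here, and further list members are given by name to complete a count. The members of the comparison and the 40 lists (856 genes, 15 unmatched by symbol) were chosen with earlier results of these data known. The comparison of WT nZFP with WT controls, the fit with controls from other mice and the naming of Arpp21 were added after values had been seen. Promoter windows are from RefSeq (GRCm38.p6).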

Additional observations from a re-analysis of the deposited data

Results flagged for a closer look

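Among 122 groups of 8 or fewer libraries examined for a single library far from the rest, 10 had one, and chance gives about 1 in 20. In WT nZFP, R1 was the highest for Gpx6 (5.976 CPM, next 2.14), Plk5 (30.11 CPM, next 25.68) and Arpp21 (1248 CPM, next 736.5), R5 for Upb1 (5.86 CPM, next 4.49) and R8 for Ddit4l (41.13 CPM, next 36.18). In zQ175 nZFP, R6 was the lowest for Drd1 (208.1 CPM, next 224.2) and the highest for Acox3 (24.15 CPM, next 20.98), and R8 was the highest for Onecut1 (0.5674 CPM, next 0.298) and Ighv6-3 (6.565 CPM, next 2.996). Among the zQ175 DBD libraries, R3 had a genotype index of 1.353 (next 1.096).

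The genotype difference itself differed by virus, with an interaction that passed the test in 512 genes for nZFP against DBD and in 204 for nZFP against Estop. The Estop vector entry, which is not part of the gene comparison, stood at 3.73 CPM in the library labelled WT DBD R6, against at most 1.62 CPM in the other 14 DBD libraries.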

How the results depend on the processing

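No direction reversed. The counts of genes higher and lower under nZFP (137 and 104) were 280 and 275 with the nZFP groups fitted alone, 359 and 315 when the length index (long against short genes) was a covariate, 320 and 299 without the libraries that stood apart and 64 and 47 at an adjusted p under 0.01. DESeq2 called 158 lower genes. Leaving out 1 nZFP library gave 99 to 153 higher and 71 to 113 lower. Genes of the genotype set still differing (217) numbered 413 with the nZFP groups alone, 573 with the length index, 546 without the libraries that stood apart and 120 with controls from other mice (155 to 230 with 1 library left out). Genes near WT (982) numbered 1887, 1650 and 257 under the last 3 of these, 2300 with the set called under DBD alone, and 1589 or 337 with a wider (1.5-fold) or narrower limit (887 to 1005 with 1 left out). Genes with a smaller effect than under DBD (509) numbered 877 with the length index, 240 with controls from other mice and 204 against Estop (398 to 492 with 1 left out). Genes present under nZFP alone (2) numbered 1 with the replicate block, DESeq2, the length index or without the libraries that stood apart, and 0 with limma voom, no filter or controls from other mice (0 to 2 with 1 left out). Controls from other mice gave 2843 genes under DBD and 985 under Estop, and the length index 4608 under Estop (4285 to 4511 and 2961 to 3055 with 1 nZFP library left out). The cause of these shifts was not tested.

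With the replicate block 139 genes were higher and 101 lower, 219 still differed and 999 were near WT, and 218 of the 241 calls were shared. Same-numbered nZFP libraries did not deviate together (0 of 8 pairs with a correlation over 0.1, 0 best with their own number), so the numbers do not pair the samples. Of the 49 called genes among 57 examined under the rule, 41 kept their call with each nZFP library left out in turn. Precision limits the undecided genes: the median SE over all genes was 0.10 on the log2 scale.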
